A study of Mus musculus with 24 samples.

Results

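Messenger RNA of 7 GABA-A receptor subunit genes was followed in mouse visual cortex: the alpha subunits Gabra2, Gabra3, Gabra4 and Gabra5, the beta subunits Gabrb1 and Gabrb2, and the delta subunit Gabrd. They were taken by gene symbol from a table of 23881 genes, in which all 7 were found. The table holds 12 libraries of C57BL6J mice under normal rearing: 4 from wild type at postnatal day 10 (P10-wt), 4 from wild type at postnatal day 28 (P28-wt) and 4 from miR-132/212 null mice at postnatal day 28 (P28-KO). The null mice lack both miRNAs in every cell of the body, so nothing in the design ties a difference to a cell type, and there was no null group at day 10. Values are RPKM, read density over the exon model of a gene after scaling to the size of the library, and can be compared between genes because they are per length. All 7 genes passed the filter for testing, a mean of at least 0.5 RPKM over the 12 libraries, as did 13927 genes in all. The study describes the replicates of each age and genotype as separate mice, which the labels themselves do not state. In 4 of the 12 libraries both Ddx3y, a gene of the Y chromosome, and Xist exceeded 1 RPKM, and each column was taken as 1 library, so p-values measure the spread between libraries.

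GABA-A receptors are chloride channels that carry most fast inhibition in the cortex, and each is a ring of subunits, usually alpha and beta together with gamma or delta. Receptors with a gamma subunit gather mostly at synapses, whereas receptors with delta, which in forebrain pair mostly with alpha 4, and many of those with alpha 5 lie outside synapses and carry tonic inhibition. The alpha subunit sets much of the receptor's kinetics and its response to benzodiazepines, and delta receptors are the most sensitive to neurosteroids.

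The null mice lack the 4 mature miRNAs below, which are shown because the genotype comparison and the search for their sites rest on them. They are encoded side by side on the plus strand of chromosome 11, between 75173403 and 75173744 (GRCm38, sequences from RefSeq, build GRCm38.p6). Capitals mark the seed, bases 2 to 8 from the 5′ end, which is the same in miR-132-3p and miR-212-3p and differs in the other two.
miR-132-3p: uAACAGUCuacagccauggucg
miR-212-3p: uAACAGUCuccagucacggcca
miR-132-5p: aACCGUGGcuuucgauuguuac
miR-212-5p: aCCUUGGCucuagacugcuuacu

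The precursors Mir132 and Mir212 averaged 12.11 and 18.81 RPKM in P28-wt and were listed at 0 in all 4 P28-KO libraries. Library sums ran from 256600 to 293100 RPKM, and no read counts were used. Within P10-wt, library 103R lay at -79.03 on the first principal component (70.9% of the variance), beyond the other 3 at -56.9 to -55.3. Libraries 158R and 152R had the lowest values on the second component among P28-wt. Genes below the 25th percentile of GC content lay 0.10 to 0.17 above their mean (log2) in P10-wt and at -0.20 to -0.03 from it in P28-wt, which touches the 5 members that lie under the 20th percentile of GC content. Markers of cortical excitatory neurons were all tested and summed to 454.9 to 638.5 RPKM in P10-wt and 1247 to 1466 at day 28, and 3 of the 5 dentate gyrus markers and 2 of the 5 cerebellar granule cell markers, Gabra6 among them, were under 0.5 RPKM in every library. The 7 thalamus markers summed to 22.8 to 34.75 RPKM in P10-wt and 12.3 to 14.6 in P28-wt, with 3 of 5 tested called lower. All 6 striatum markers were tested, with 1 called higher and 4 lower by age. They summed to 30.7 to 49.15 RPKM in P10-wt and 81.0 to 91.8 in P28-wt. Library 103R, also the farthest from day 28 in Gabrd, Gabra4 and Gabra5, stood apart from its group in some markers, in both directions. Of the excitatory markers, Slc17a7 (159.8 RPKM, rest of the group 308 to 310.2) and Camk2a (94.57, rest 165.1 to 172.8) were lower in 103R. Neurod6, also excitatory (92.3, rest 37.55 to 52.93), and Prkcd of thalamus (10.13, rest 4.189 to 5.232) were higher. The part of dissection in the differences between libraries was not tested. Fewer cells of a type and less RNA per cell cannot be told apart in these bulk libraries.

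Between day 10 and day 28 the pool of subunit mRNA changed in make-up. Gabrd rose 5.44-fold and Gabra4 1.62-fold, Gabra5 fell 3.28-fold and Gabrb1 1.94-fold, and Gabra2, Gabra3 and Gabrb2 did not pass the test. Thus 2 of the 7 genes were higher, 2 were lower and 3 were not called at an adjusted p under 0.05 (limma on log2(RPKM + 0.1), Benjamini-Hochberg over all genes tested). Over all genes tested, 26.7% were called higher and 31.2% lower, so 2 of 7 in each direction is near the background. In the 4 called genes the libraries of the 2 ages did not overlap, which was also true of 54.5% of all genes tested. The plot of levels by library shows these patterns.

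**Figure D1:**
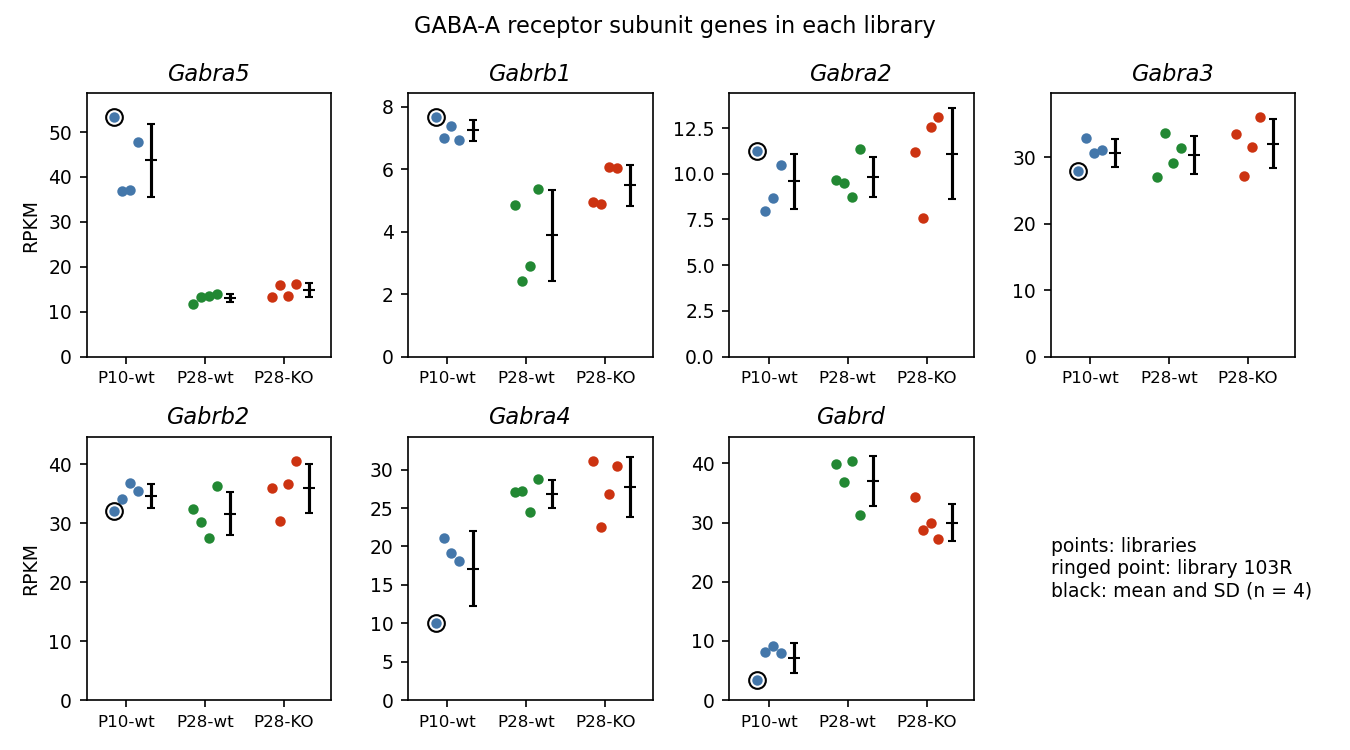
RPKM (vertical axes, from 0) of the 7 subunit genes in each of the 12 libraries, by group, with the mean and SD of the 4 libraries in black and library 103R ringed. Gabrd went from 3.38 to 9.09 RPKM in P10-wt to 31.2 to 40.4 in P28-wt and Gabra5 from 36.8 to 53.2 to 11.8 to 13.9, while Gabra2, Gabra3 and Gabrb2 overlapped between the ages.

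Gabrd (chromosome 4, 155384979 to 155398069, build mm10 as are all positions of the table) encodes delta, the subunit that takes the place of gamma in extrasynaptic receptors. It was at 3.38, 8.12, 9.09 and 8.004 RPKM in the P10-wt libraries 103R, 111R, 117R and 099R. In the P28-wt libraries 146R, 158R, 152R and 144R it was at 39.8, 36.8, 40.4 and 31.2 RPKM. Every library of day 28 lay far above every library of day 10, and 103R was the lowest of all. The log2 fold change was 2.44 (SE 0.26, 95% interval 1.86 to 3.03, limma adjusted p = 3.085e-05), and 2.12 without 103R. Markers of oligodendrocytes also rose with age, all 8 of 8, from sums of 23.4 (103R) to 97.7 RPKM in P10-wt to 1729 to 2467 in P28-wt. Of 9 inhibitory neuron markers, 6 rose and 2 fell (sums of 275.2 to 339.8 and 531.5 to 745 RPKM). All 8 microglia markers rose (42.8 to 72.1 and 121.6 to 128 RPKM), and of 9 astrocyte markers 5 rose and 1 fell (335.3 to 516.2 and 704.1 to 743.8 RPKM). Of 5 oligodendrocyte precursor markers 1 rose and 3 fell. The part of any of these cell types in the change of Gabrd was not tested.

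Gabra5 (chromosome 7, 57407669 to 57510009) encodes alpha 5, which in the mature brain is most abundant in the hippocampus. In the P10-wt libraries, in the same order, it was at 53.2, 36.8, 37.2 and 47.8 RPKM. The P28-wt libraries had 11.8, 13.4, 13.4 and 13.9 RPKM. The day 28 values lay close together, while the day 10 values were spread, with 103R at the top, farthest from day 28. The log2 fold change was -1.71 (SE 0.12, 95% interval -1.99 to -1.44, limma adjusted p = 2.492e-06), and -1.61 without 103R.

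Gabra4 (chromosome 5, 71569734 to 71658308, minus strand) encodes alpha 4, the main partner of delta in forebrain. The P10-wt libraries had 10.0, 21.1, 19.2 and 18.2 RPKM, and the P28-wt libraries 27.1, 27.2, 24.4 and 28.8 RPKM. The groups did not overlap, and 103R was again the library farthest from day 28. The log2 fold change was 0.70 (SE 0.20, 95% interval 0.26 to 1.14, limma adjusted p = 0.0117). Without 103R it was 0.46, smaller by more than 1.5 times, and still past the threshold (adjusted p = 0.00125).

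Gabrb1 (chromosome 5, 71700016 to 72137244, plus strand), which encodes beta 1, is the neighbour of Gabra4 and moved the other way. It was at 7.66, 7.0, 7.39 and 6.94 RPKM in P10-wt and at 4.84, 2.41, 2.91 and 5.38 RPKM in P28-wt. The day 10 libraries were nearly level, and within day 28 the libraries 158R and 152R were lowest. The log2 fold change was -0.96 (SE 0.22, 95% interval -1.45 to -0.46, limma adjusted p = 0.00405). When the dependence on GC content and transcript length was removed from each library it was -0.48 (adjusted p = 0.0224). The GC content of its transcript, 40.9%, lies at percentile 7.13 of tested genes, and its annotated 3′ untranslated region of 12228 bases runs past the end of the table's gene model, so the length used in that removal exceeds the table's.

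The promoter windows of these neighbours are shown because Gabra4 and Gabrb1 differed in direction. Only the first start of Gabrb1 shown here lies close to that of Gabra4. Each window covers 250 bases before to 50 after a RefSeq start (GRCm38.p6), 5′ to 3′ on the gene's own strand, with CpG dinucleotides in capitals. The first start of Gabrb1 lies inside Gabra4, on the other strand, and upstream of the table's model for Gabrb1, which begins near the second. The libraries do not mark strand, so reads from such an overlap cannot be assigned by strand.
Gabra4 chr5:71658259-71658558, minus strand: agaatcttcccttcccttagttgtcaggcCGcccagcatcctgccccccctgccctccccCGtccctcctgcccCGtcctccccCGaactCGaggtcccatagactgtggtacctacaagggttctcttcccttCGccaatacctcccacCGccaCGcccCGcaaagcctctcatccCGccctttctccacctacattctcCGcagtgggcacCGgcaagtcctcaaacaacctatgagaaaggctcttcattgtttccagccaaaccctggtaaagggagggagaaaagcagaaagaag
Gabrb1 first start chr5:71657671-71657970, plus strand: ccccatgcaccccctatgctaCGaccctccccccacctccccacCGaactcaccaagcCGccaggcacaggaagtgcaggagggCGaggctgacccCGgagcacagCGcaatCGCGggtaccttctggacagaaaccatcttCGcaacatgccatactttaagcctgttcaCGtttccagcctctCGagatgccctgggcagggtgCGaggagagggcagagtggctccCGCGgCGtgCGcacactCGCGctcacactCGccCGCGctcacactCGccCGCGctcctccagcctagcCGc
Gabrb1 second start chr5:71699682-71699981, plus strand: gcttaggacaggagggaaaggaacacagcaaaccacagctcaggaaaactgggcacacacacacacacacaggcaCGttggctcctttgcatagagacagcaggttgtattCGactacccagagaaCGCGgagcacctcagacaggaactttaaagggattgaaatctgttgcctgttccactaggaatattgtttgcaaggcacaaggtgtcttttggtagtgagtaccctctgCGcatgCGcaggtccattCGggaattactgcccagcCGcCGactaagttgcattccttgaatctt

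The Gabra4 window held 12 CpG and the Gabrb1 windows 25 and 9, against a median of 7 over 32841 mouse promoter windows of the same length. None of the 3 held TGACG, the core of the CRE motif TGACGTCA, or the Egr core GTGGGCG, or TATAAA, on either strand. These letters occur in 20.8%, 7.97% and 13.6% of all windows, the CRE motif containing the first. Among the other members, both windows of Gabra3 held TATAAA and no CpG, 1 of the 3 of Gabrb2 held TGACG and TATAAA, the window of Gabra2 held 25 CpG and that of Gabra5 13, both without these motifs. Gabrd had no entry.

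Gabra2, Gabra3 and Gabrb2 encode alpha 2, common at synapses on the axon initial segment, alpha 3, and beta 2, a main beta subunit of adult cortex. Gabra2 (chromosome 5, 70961057 to 71095849) was at 11.2, 7.96, 8.68 and 10.5 RPKM in P10-wt and 9.68, 9.51, 8.75 and 11.4 RPKM in P28-wt, a log2 difference of 0.04 (95% interval -0.23 to 0.32, limma adjusted p = 0.782). Gabra3 (chromosome X, 72432676 to 72656246) was at 27.9, 32.9, 30.5 and 31.0 RPKM in P10-wt and 27.0, 33.7, 29.2 and 31.3 RPKM in P28-wt, a difference of -0.02 (interval -0.21 to 0.18, adjusted p = 0.881). The ages overlapped in both genes. Gabrb2 (chromosome 11, 42419757 to 42632591) was at 32.1, 34.1, 36.9 and 35.5 RPKM in P10-wt and 32.5, 30.2, 27.5 and 36.2 RPKM in P28-wt, a difference of -0.14 (interval -0.34 to 0.07, adjusted p = 0.229). With the GC and length trend removed, Gabra2 and Gabra3 passed the test as higher at day 28, at 0.40 (adjusted p = 0.01004) and 0.20 (adjusted p = 0.0274), and 4 of the 7 genes were then called higher, where 29.0% of all genes were. Their transcripts lie at percentiles 1.93 and 14.0 of GC content. The plot of log2 fold changes gives the intervals.

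**Figure D2:**
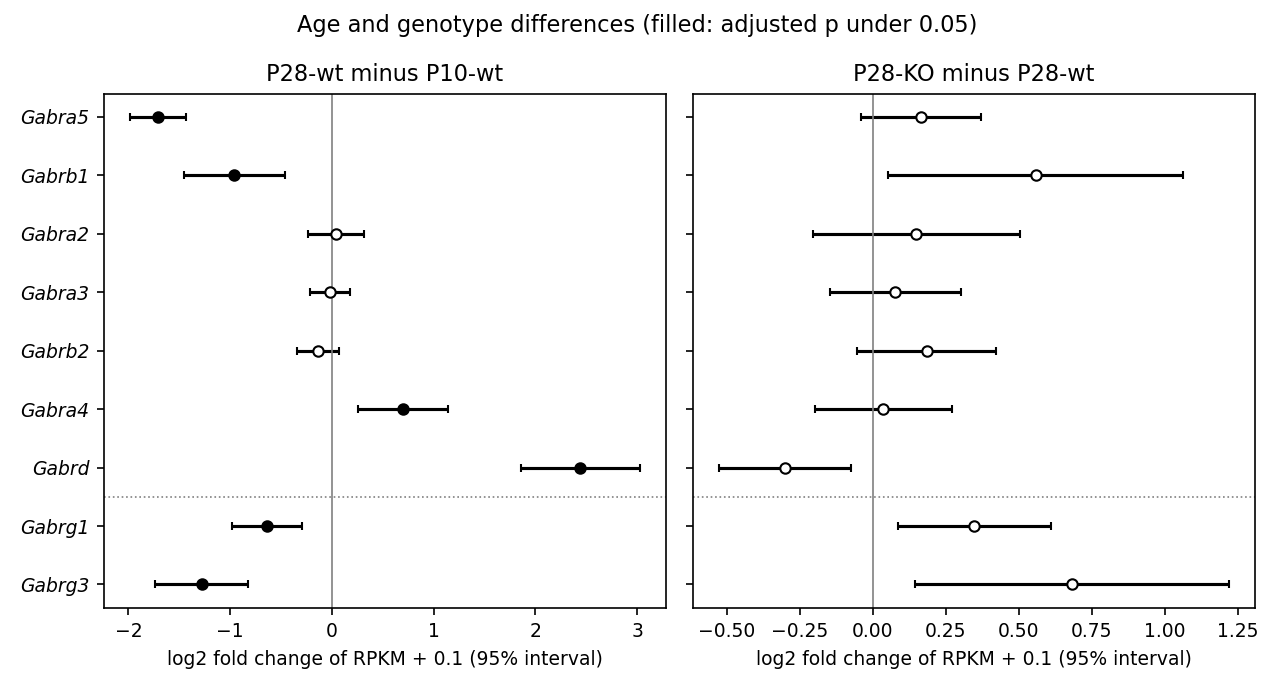
Log2 fold change of RPKM + 0.1 (horizontal axes, with 95% intervals) for age (left) and genotype (right), for the 7 genes and, under the dotted line, Gabrg1 and Gabrg3. Filled points passed an adjusted p of 0.05: Gabrd at 2.44, Gabra4 at 0.70, Gabra5 at -1.71, Gabrb1 at -0.96, Gabrg3 at -1.28 and Gabrg1 at -0.64 by age, and none by genotype.

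The order of the 7 genes changed with age. In P10-wt, Gabra5 (43.75 ± 8.12 RPKM, SD, n = 4), Gabrb2 and Gabra3 (30.59 ± 2.09) were the highest, with neighbours that overlapped, and Gabrb1 (7.25 ± 0.341) and Gabrd (7.15 ± 2.56) the lowest, also overlapping. In P28-wt, Gabrd (37.05 ± 4.22) was first, though Gabrb2, Gabra3 and Gabra4 below it each overlapped with the neighbour above. A gap to Gabra5 (13.14 ± 0.907) followed, and Gabra2 (9.83 ± 1.11) and Gabrb1 (3.88 ± 1.45) were set apart in turn. The order in P28-KO was Gabrb2, Gabra3, Gabrd and Gabra4, each overlapping with its neighbour, then Gabra5, Gabra2 and Gabrb1 without overlap.

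Set within the sum of the 4 alpha genes, the changes were of unequal size. That sum was 101.1 ± 5.06 RPKM in P10-wt and 80.13 ± 5.22 in P28-wt (SD, n = 4). The share of Gabra5 in it went from 43.2% ± 6.67 to 16.4% ± 0.924, with 103R highest at 52.0%. Gabra4 held 17.04% ± 5.19 and then 33.6% ± 1.64, and 103R was lowest at 9.78%. Neither share overlapped between the ages. Gabra3 held 30.3% ± 2.79 and then 37.8% ± 2.0, and Gabra2 9.46% ± 1.22 and then 12.3% ± 0.957, both without overlap although their levels did not pass the test. A share depends on which genes are summed, and in a wider sum of alpha genes the mean shares of Gabra2 and Gabra3 were lower at day 28, with overlap, while Gabra5 was lower and Gabra4 higher as here, without overlap. In P28-KO the shares were 17.4% ± 3.01 for Gabra5, 32.3% ± 1.83 for Gabra4, 37.4% ± 0.213 for Gabra3 and 12.8% ± 1.91 for Gabra2, all overlapping with P28-wt. These shares are descriptions without a test, and mRNA shares do not give the make-up of assembled receptors.

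**Figure D3:**
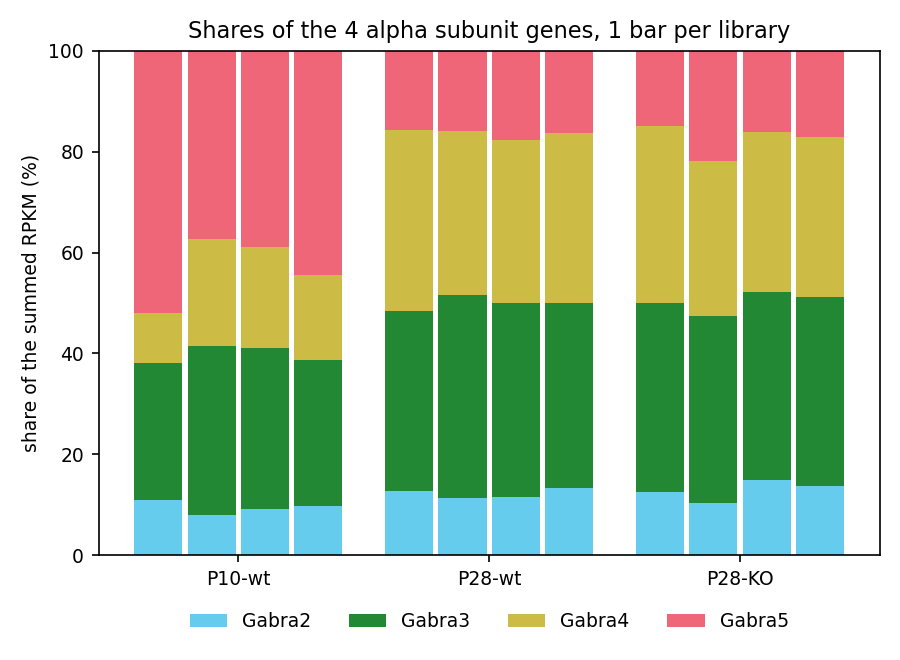
Share (%) of Gabra2, Gabra3, Gabra4 and Gabra5 in their summed RPKM, 1 bar per library, by group. Gabra5 takes 37.2 to 52.0% in P10-wt and 14.97 to 21.8% over the libraries of day 28, and Gabra4 9.78 to 21.4% and 30.8 to 35.8%.

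Ratios between genes of the same library give the same shift. Gabrd was at 0.0634 to 0.245 times the level of Gabra5 in P10-wt and at 2.24 to 3.37 times in P28-wt. The ratio of Gabra5 to Gabra4 was 1.74 to 5.32 in P10-wt, with 103R at the top, and 0.437 to 0.550 in P28-wt. Gabrb2 was 4.19 to 5.12 times Gabrb1 in P10-wt and 6.70 to 12.5 times in P28-wt. The highest P28-wt ratios were those of 158R (12.5) and 152R (9.48), with 146R at 6.70 and 144R at 6.74. In P28-KO the ratio was 6.04 to 7.25.

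Of the other subunit genes, Gabrg3 and Gabrg1, both gamma genes, fell with age. Gabrg3 was at 3.19 ± 0.395 RPKM in P10-wt and 1.29 ± 0.371 in P28-wt (SD, n = 4), a log2 fold change of -1.28 (limma adjusted p = 0.000434). Gabrg1 was at 4.602 ± 0.903 and 2.90 ± 0.389 RPKM, a change of -0.64 (adjusted p = 0.00518). With the GC and length trend removed, Gabrg1 was no longer called (-0.30, adjusted p = 0.113), and Gabrg3 was (-0.87, 0.00202). Gabrq, which encodes theta, was not tested, at 0.494 to 0.768 RPKM in P10-wt and 0.0894 to 0.228 in P28-wt. The genes sit in clusters. Gabra5 and Gabrg3, neighbours on chromosome 7, were both lower at day 28, whereas the 1386 kb cluster of chromosome 5 (Gabrg1, Gabra2, Gabra4, Gabrb1) held genes called in both directions and 1 that was not called.

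Genes that place receptors at synapses were called in both directions, as were genes in general. Of 26 genes for assembly, trafficking and anchoring, 11 were higher and 6 lower, where 26.7% and 31.2% of all genes tested were. Their median log2 fold change was 0.01 against -0.05 over all genes tested. Hap1, a trafficking adaptor, rose by 0.997 (adjusted p = 2.454e-05). The gene listed as 6030419C18Rik (now Insyn1), an inhibitory synapse protein, rose by 0.96 (1.657e-05). Dag1, dystroglycan, changed by -0.76 (0.000286).

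Of 8 genes for GABA synthesis, release, uptake and breakdown 2 were higher and 3 lower (median 0.22). The shares over all genes tested, here and for the lists below, were 26.7% higher and 31.2% lower. In lists this small the counts are descriptions only. Gad1, which makes GABA, rose by 1.12 (adjusted p = 2.444e-06) and Slc32a1, its vesicular transporter, by 0.49 (0.0184). The transporters Slc6a11 and Slc6a13 changed by -1.07 (2.108e-05) and -0.96 (0.000132). Among 6 GABA-B receptor genes 2 were higher and 2 lower (median -0.15). The auxiliary subunit gene Kctd12 changed by -1.35 (4.65e-05), Kctd8 by 0.51 (0.00439), Kctd12b by -0.49 (0.0306) and the receptor gene Gabbr1 by 0.26 (0.0173). Of 5 genes of neurosteroid synthesis, whose products act on delta receptors, 2 were higher and 1 lower (median -0.09). Srd5a1, the steroid reductase, changed by -0.95 (1.384e-05), Tspo by 0.97 (0.00084) and Cyp11a1 by 1.02 (0.0377), and Star differed by -0.09 (0.614).

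In P28-KO none of the 7 genes differed from P28-wt at an adjusted p under 0.05 by limma, and in all 7 the libraries of both genotypes overlapped. Over all genes tested 0% were called higher and 0.0144% lower, the latter being Mir132 and Mir212, and 5.49% did not overlap. A regularized test on RPKM, of the kind the study used, called none of the 7 at an adjusted p under 0.05, and 2 genes higher and 3 lower over all genes tested. Its unadjusted p was 0.00724 for Gabrd and 0.0103 for Gabrb1. The study called genes by a posterior probability, which was not repeated here, so this does not give the outcome at its threshold. At an unadjusted p under 0.05 by limma, Gabrb1 was higher and Gabrd lower, where 4.27% of all genes tested were higher and 8.11% lower. In simulated data of this design, with 50 genes changed at each size, 36% of planted log2 changes of 0.5 and 84% of changes of 1 were recovered. More genes were recovered there than the 2 called by limma in the data, which eases the adjusted threshold. These shares are thus likely too high for the genotype comparison. Differences of 0.5 or less would mostly go uncalled, and larger ones may be missed too.

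Gabrd was at 34.3, 28.7, 29.8 and 27.2 RPKM in the P28-KO libraries 030R, 088R, 129R and 079R, with only 030R inside the range of P28-wt. The log2 difference was -0.30 (SE 0.10, 95% interval -0.53 to -0.08, limma adjusted p = 0.382). It was -0.16 with the GC and length trend removed and -0.24 without 158R and 152R, neither under 0.05 before adjustment. The ratio of Gabrd to Gabra5 was 1.67 to 2.57 in P28-KO against 2.24 to 3.37 in P28-wt, and that of Gabrd to Gabra4 0.893 to 1.27 against 1.08 to 1.65. Both overlapped. Oligodendrocyte markers summed to 1293 to 1649 RPKM in P28-KO against 1729 to 2467 in P28-wt, with 6 of 8 lower at an unadjusted p under 0.05, and their part in the difference was not tested.

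Gabrb1 was at 4.96, 4.88, 6.07 and 6.05 RPKM in P28-KO, above 158R, 152R and 146R of P28-wt in all 4 libraries and above 144R in 2. The log2 difference was 0.56 (SE 0.23, 95% interval 0.05 to 1.06, limma adjusted p = 0.394). Without 158R and 152R it was 0.10 (limma adjusted p = 0.901), and with the GC and length trend removed 0.29 (adjusted p = 0.474). Since 158R and 152R held the lowest P28-wt values, leaving them out could only make the difference smaller. It was 0.36 without 158R alone and 0.45 without 152R alone.

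Gabra5 was at 13.3, 15.9, 13.6 and 16.3 RPKM in P28-KO, a log2 difference of 0.17 (95% interval -0.04 to 0.37, adjusted p = 0.461). Gabra4 was at 31.1, 22.5, 26.9 and 30.4 RPKM (0.04, -0.20 to 0.27, 0.902), and Gabrb2 at 36.0, 30.4, 36.7 and 40.6 RPKM (0.18, -0.05 to 0.42, 0.472). All 3 overlapped with P28-wt. Gabra2 was at 11.2, 7.57, 12.6 and 13.1 RPKM (0.15, -0.21 to 0.50, 0.688) and Gabra3 at 33.4, 27.1, 31.5 and 35.9 RPKM (0.08, -0.15 to 0.30, 0.754). In each, 088R, whose lowest-GC genes lay 0.16 below their mean, was lowest among P28-KO, except in Gabra5. The intervals leave differences of up to 0.50 in size for these 5 genes. With P28-KO in place of P28-wt, 24.6% of all genes tested were called higher than in P10-wt and 33.6% lower, and the same 4 members were called, at 2.14 for Gabrd, 0.74 for Gabra4, -1.55 for Gabra5 and -0.40 for Gabrb1. Both comparisons share the P10-wt libraries.

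**Figure D4:**
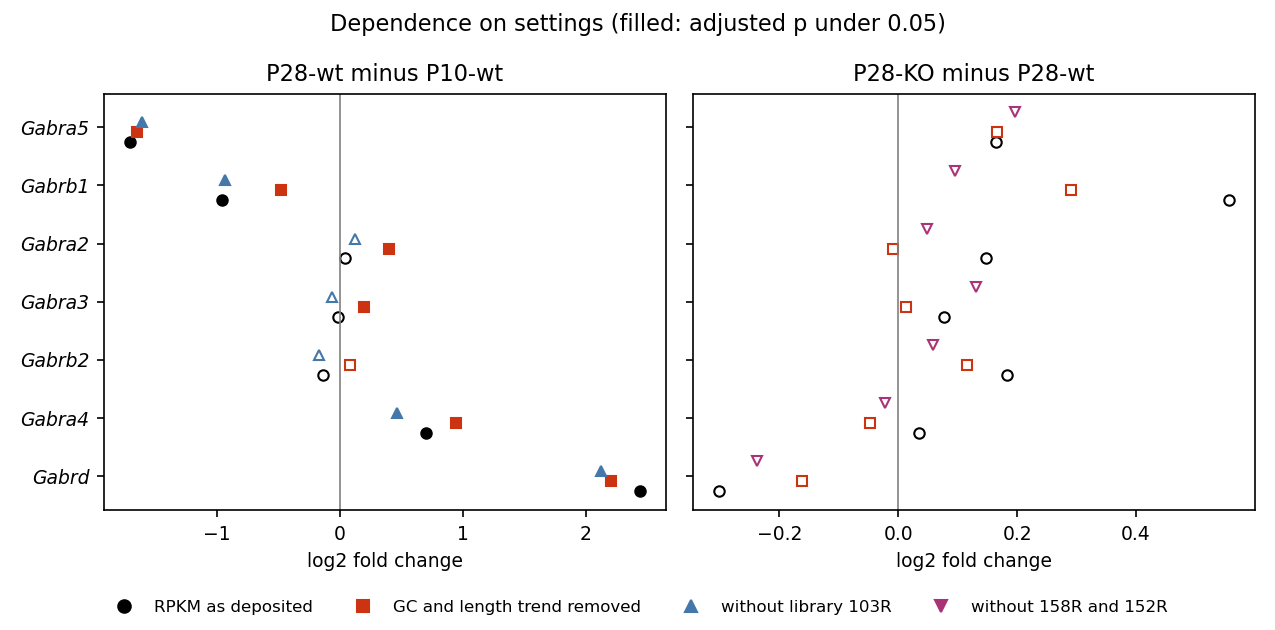
Log2 fold change (horizontal axes) of each gene by age (left) and genotype (right), as deposited (circles), after removal of the GC and length trend (squares), without 103R (triangles up, age only) and without 158R and 152R (triangles down, genotype only). Filled points passed an adjusted p of 0.05: Gabrb1 moves from -0.96 to -0.48 by age and from 0.56 to 0.10 by genotype, and Gabra2 and Gabra3 are filled by age only among the squares.

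None of the other subunit genes or pathway lists had a gene called by genotype by limma. Gabrg3 and Gabrg1 differed by 0.68 and 0.35 (limma adjusted p = 0.382 for both, unadjusted p = 0.0177 and 0.0144). In Gabrg1 the libraries of the 2 genotypes did not overlap, which held for 5.49% of all genes tested. Without 158R and 152R the differences were 0.40 and 0.21, neither under 0.05 before adjustment. These libraries held the lowest P28-wt values of both genes, so leaving them out could only make the differences smaller. In the other lists the lowest were Lhfpl4 (-0.25, adjusted p = 0.382), which tethers receptors to neuroligin 2, 6030419C18Rik (-0.22, 0.394), Slc6a13 (0.38, 0.415), Gad2 (0.22, 0.423), Kctd8 (-0.23, 0.420), Kctd12 (0.25, 0.426), Cyp11a1 (-0.27, 0.460) and Srd5a1 (-0.07, 0.770).

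The sites that pair with the seeds of the missing miRNAs are GACTGTT for miR-132-3p and miR-212-3p, GCCAAGG for miR-212-5p and CCACGGT for miR-132-5p, read on the mRNA strand. None of the 7 genes held any of them in its annotated 3′ untranslated regions, which were 421 bases long in Gabrd to 12228 in Gabrb1. Of 13101 tested genes with such a region, 13.2%, 13.3% and 3.45% held them. With a match of 6 bases to bases 2 to 7 the counts were 4 of 7 for ACTGTT (Gabra2, Gabra3, Gabra5, Gabrb1; 41.8% of tested genes), 4 for CCAAGG (Gabra4, Gabra5, Gabrb1, Gabrb2; 37.1%) and 1 for CACGGT (Gabrd; 10.8%). Of the other subunit genes, Gabrg3 held GACTGTT. A match is a description, and no match says only that these letters were not found in these regions.

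The genes whose pattern was most like each subunit were found by the root mean square difference (log2) over the 12 libraries, among 12699 genes, which are no independent replicates and share library depth and composition. For Gabrd they were Vipr1, a receptor for vasoactive intestinal peptide (0.128), Dusp14, a phosphatase (0.135), and S100b, an astrocyte calcium-binding protein (0.150). For Gabra5 they were Hs6st2, a heparan sulfate sulfotransferase (0.111), Grip1, a scaffold protein (0.124), and Isoc1 (0.127). For Gabra4 they were Lin7a (0.0854) and Dlg1 (0.1003), both synaptic scaffolds, and Omg (0.108). Gabrb1 was nearest to Mob1b (0.114), Klhl28 (0.116) and Usp9x (0.121), and Gabra2 to Slc5a3 (0.109), Senp8 (0.131) and Nedd4l (0.132). Gabra3 was nearest to Slc25a46 (0.0599), Rnf11 (0.0708) and Rab6a (0.0739), and Gabrb2 to Arl14ep (0.0620), with Zfp148 also among its nearest 3 (0.0650). Among the 7 genes themselves the closest pair was Gabra3 and Gabrb2 (0.129), and among all subunit genes Gabrb1 lay closest to Gabrg3 (0.254).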

How the data were processed

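RNA of visual cortex was extracted with QIAzol and made into TruSeq v2 libraries, which do not mark strand. Per the study's methods the authors sequenced about 30 M paired reads per sample, aligned them to mm10 with ELAND and RefSeq gene models, kept uniquely aligned reads and deposited RPKM for 23881 genes. The submitters' processing notes name CASAVA 1.8.2, SAMtools 0.1.19 and Bowtie 0.12.8. Low values were not steps of whole reads, so no counts were recovered and no counting interval is given.

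The 7 genes, the gene lists and the markers were chosen with earlier results of these data known. Each pair of groups (P28-wt against P10-wt, P28-KO against P28-wt, 4 libraries each, from the labels) was fitted with limma 3.58.1 (R 4.3.3) on log2(RPKM + 0.1), its prior variance following mean expression, for the 13927 genes averaging at least 0.5 RPKM, which understates fold changes of low genes. Adjusted p-values are Benjamini-Hochberg over all genes tested and called under 0.05. From each pathway list, up to 4 genes with the smallest p by age and up to 2 by genotype are named; like patterns took the 3 nearest genes with a mean of at least 1 RPKM. Alternatives were pseudocounts of 0.01 and 1, no filter or a mean of at least 2 RPKM, quantile normalization or median-ratio scaling, 1 fit of all 12 libraries, a regularized test built from the study's description (window 101, confidence 10), called by the same adjusted p and not by the posterior probability that the study used, removal of a loess trend on GC content and transcript length (GENCODE M21, span 0.3, 13830 genes) and each library left out. Steps were tested on simulated data. Added after seeing the data were P28-KO in place of P28-wt, 158R and 152R left out, a replicate block, 6-base seed matches and the seed search in other subunits. Sequences are from RefSeq (6 of 7 genes had a promoter entry), and no protein sequence was used. Small RNA libraries were not analysed here. Some genes that the rules name, and class sums that need them, are not reported here.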

Additional observations from a re-analysis of the deposited data

How the results depend on the processing

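The age calls of Gabrd, Gabra5, Gabra4 and Gabrb1 held in direction and threshold in each of the 17 alternatives listed first in the methods. Without each library in turn the log2 fold changes were 2.12 to 2.59, -1.79 to -1.61, 0.46 to 0.82 and -1.14 to -0.76. With the GC and length trend removed, the genes called higher by age numbered 4, since Gabra2 (0.40) and Gabra3 (0.20) joined, and Gabrb2 turned to 0.079. By genotype that removal turned Gabra2 to -0.0091 and Gabra4 to -0.048. Median-ratio scaling turned Gabra3 by age to 0.029. Without each library in turn, Gabra2 by age ran from -0.040 to 0.12, Gabra3 by age from -0.069 to 0.037 and Gabra4 by genotype from -0.024 to 0.13. With P28-KO in place of P28-wt, Gabra3 by age was 0.060 and Gabrb2 0.047, and without 158R and 152R Gabra4 by genotype was -0.022. None of these genes that changed sign was called in the comparison as reported, and the cause was not tested. By genotype the regularized test called 2 genes higher over all genes where limma called 0. Counts of the pathway lists by age also moved. GABA-B receptor genes gave 1 higher and 1 lower under quantile normalization and under the regularized test, and 0 and 1 with P28-KO in place of P28-wt. Neurosteroid genes gave 1 and 1 with the GC and length trend removed. GABA synthesis, release, uptake and breakdown genes gave 4 and 3 under the regularized test. Within their own sum, Gabra2, Gabra3, Gabra4 and Gabra5 held 9.46, 30.3, 17.04 and 43.2% in P10-wt, 12.3, 37.8, 33.6 and 16.4% in P28-wt, and 12.8, 37.4, 32.3 and 17.4% in P28-KO. In a wider sum of alpha genes all these shares were smaller, those of Gabra5 and Gabra4 kept their direction by age, and those of Gabra2 and Gabra3 turned to lower means at day 28. The 6-base seed match was found in 4, 4 and 1 of the 7 genes where the 7-base match was in 0. The column names number the libraries 1 to 4 in each group, without saying that a number marks a shared litter or batch, and libraries with the same number did not all deviate together (r across genes from -0.0485 to 0.114 by age and -0.0906 to 0.281 by genotype). With this number as a replicate block, 3625 genes were higher and 4244 lower by age, and 0 and 2 by genotype, and no call among the 7 genes changed.

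Depth per gene is unknown, since only RPKM was used. In simulated data with few changed genes, planted log2 changes of 0.25 were recovered in 0% (age) and 2% (genotype) of cases. Far more genes were called by age in the data, which eases the adjusted threshold, so the 0% does not carry over to that comparison. Gabbr1, for example, was called by age at 0.26 (limma adjusted p = 0.0173). With 4 libraries per group, genotype differences under about 0.5 are mostly out of reach. Larger ones may be missed too, since fewer genes were called by genotype in the data than were recovered in the simulation. The levels of low-GC genes as a set differed between the ages, and whether the source is technical was not tested. For the low-GC genes Gabra2, Gabra3, Gabra4, Gabrb1 and Gabrb2 the size of a change thus depends on removal of the GC and length trend.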
